A study of Mus musculus with 12 samples.

Results

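miR-29a-3p, miR-148a-3p, miR-148b-3p, miR-152-3p and miR-152-5p are microRNAs with reported links to the enzymes that methylate DNA. They were taken by name from a table of mature microRNAs of the embryonic mouse gonad, in which 5 of the 616 listed microRNAs carry these names. The rule that names them uses no measured value, although it was written with earlier results of these data known. The study profiled small RNAs of primordial germ cells (PGC), which later give rise to eggs or sperm, and of gonadal somatic cells (SC), in CD1 embryos with no genetic change or treatment. Embryonic day 11.5 (E11.5), day 12.5 (E12.5) and day 13.5 (E13.5) were sampled in females and in males, which with both cell types makes 12 combinations, each held by a single library. As the labels' protocols describe it, gonads were pooled, the mesonephros was removed, and germ cells were pulled out with beads against CD15, the unbound cells being the somatic fraction. Since no isolation was repeated, a p-value here speaks to how these 12 libraries scatter and leaves out the variation between separate isolations.

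DNA methylation is copied onto new strands after replication by DNMT1 and is laid down afresh by DNMT3A and DNMT3B. Migrating and early gonadal germ cells lose most of their DNA methylation, a process nearly complete at the last day sampled here, while gonadal somatic cells keep theirs. A microRNA recognises messenger RNAs chiefly through its seed, bases 2 to 8 from the 5′ end. In human cells miR-29 has been reported to repress DNMT3A and DNMT3B, and miR-148 and miR-152 to repress DNMT1, with a site for miR-148 also reported in DNMT3B. The enzymes themselves were not measured in these libraries.

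The mature sequences show which members could share targets and which are close enough for their reads to be confused, and the seed is in capitals. They are RefSeq's, on GRCm38.p6.
miR-29a-3p: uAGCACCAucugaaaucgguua
miR-29c-3p: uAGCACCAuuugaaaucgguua
miR-148a-3p: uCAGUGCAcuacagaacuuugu
miR-148b-3p: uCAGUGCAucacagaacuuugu
miR-152-3p: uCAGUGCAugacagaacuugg
miR-152-5p: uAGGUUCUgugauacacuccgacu

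miR-148a-3p, miR-148b-3p and miR-152-3p share 1 seed, CAGUGCA, which no other of the 526 listed microRNAs with a sequence holds. Positions are counted from 1 at the 5′ end. miR-148a-3p and miR-148b-3p differ by C9U and U10C, miR-148a-3p and miR-152-3p by C9U, U10G and U20G over their shared 21 bases, and miR-148b-3p and miR-152-3p by C10G and U20G. miR-29a-3p differs from its relative miR-29c-3p by C10U alone. How the authors' counting assigned reads with a mismatch is not given in the sources used here, so the split of reads between such close copies is uncertain. miR-152-5p comes from the opposite arm of the hairpin that yields miR-152-3p, and its seed, AGGUUCU, is held by no other listed microRNA with a sequence.

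The members come from 4 hairpins. miR-29a-3p lies at chr6:31062673-31062694 on the minus strand, outside any host gene annotated there, in a hairpin 275 bases from that of miR-29b-1. miR-148a-3p lies at chr6:51269829-51269850 on the minus strand, within an intron of the predicted gene Gm38821. miR-148b-3p lies at chr15:103285185-103285206 on the plus strand in an intron of Copz1. Both arms of miR-152 lie in an intron of Copz2, the 5p arm at chr11:96850400-96850423 and the 3p arm at chr11:96850439-96850459, on the plus strand. Copz1 and Copz2 are paralogues that encode the zeta subunit of the COPI vesicle coat, so miR-148b and miR-152 sit in introns of related genes.

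Values are given as RPM, reads per 1e+06 microRNA reads of the library. The libraries held between 166804 and 1768825 microRNA reads, the PGC libraries of E12.5 being the least deep with 166804 in the female and 184174 in the male. A value of 0 means under 5 reads, which is 2.83 to 29.98 RPM depending on the library. The library labelled PGC female E11.5 went against its label. The 8 listed germ cell and pluripotent cell markers, all of the miR-290 cluster, were detected in it but summed to 2141 RPM, against 66992 to 136605 RPM in the other 5 PGC libraries and 221 to 5787 RPM in the SC libraries, where 2 of the 8 were at 0 in each library of E11.5. Its 6 somatic and mesenchymal markers summed to 84088 RPM, close to the 85150 to 114429 RPM of the SC libraries. The male PGC library of E11.5 held 58050 RPM of the somatic markers and those of E12.5 and E13.5 held 9139 to 29515 RPM. The 2 endothelial markers, both arms of miR-126a, stood at 51442 and 27782 RPM in the E11.5 PGC libraries, 4670 to 11230 RPM in the later ones and 16088 to 37105 RPM in the SC libraries. The 3 muscle markers summed to 913 and 1229 RPM in the E11.5 PGC libraries and to 55.8 RPM or less in the later ones, and the 4 erythroid markers to 774 and 1663 RPM against 32.6 to 186 RPM. miR-122-5p, the liver marker, stood at 2015 and 4280 RPM in the E11.5 PGC libraries and at 43.4 RPM or less in the later ones. For miR-29a-3p, miR-152-3p and miR-152-5p, the PGC minus SC differences are given with and without the library labelled PGC female E11.5. So are the PGC stage change of miR-29a-3p and the difference in stage change of miR-152-3p. Other results include that library unless stated.

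**Figure D1:**
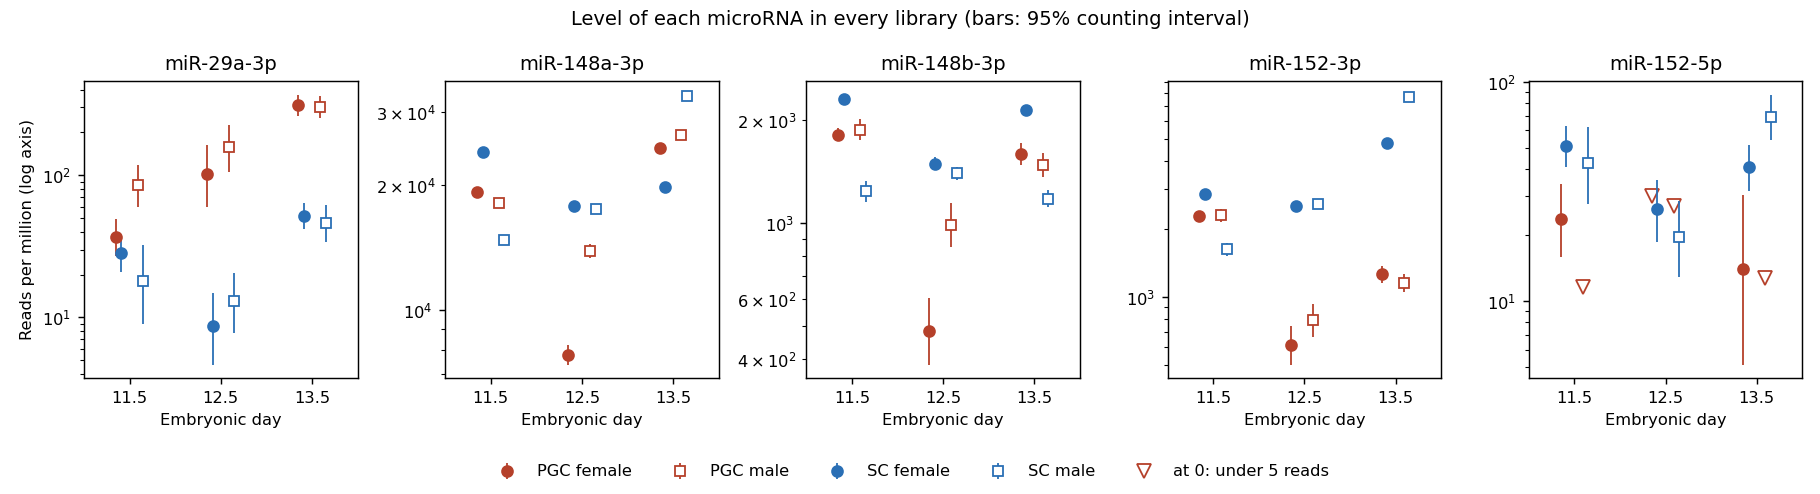
RPM (log axis, a separate range in each panel) of the 5 microRNAs against embryonic day, with PGC in red, SC in blue, filled circles for female and open squares for male libraries, bars for the exact 95% counting interval, and open triangles at the detection floor for values of 0. miR-29a-3p climbs from 36.8 and 85.5 RPM to 311 and 303 RPM in PGC, miR-152-3p parts between the cell types after E11.5, and miR-152-5p is at 0 in 4 PGC libraries.

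miR-29a-3p was scarce everywhere and, on the RPM scale, higher in germ cells than in the matched somatic cells at each stage and sex. In PGC it stood at 36.8 RPM in the library labelled female E11.5, 85.5 in male E11.5, 102 in female E12.5, 157 in male E12.5, 311 in female E13.5 and 303 in male E13.5. In SC the same order gave 28.3, 18.0, 8.71, 13.0, 52.0 and 46.2 RPM. The ranges of the cell types overlapped through a single library, the one labelled PGC female E11.5, and the other 5 PGC libraries lay above every SC library. These values rest on few reads, 17 to 134 in PGC and 11 to 88 in SC, so that 10 of the 11 neighbours in the order of the 12 levels had overlapping exact Clopper-Pearson intervals (95%, counting error only). The exception was the step from male PGC of E13.5, with an interval of 251 to 363 RPM, down to male PGC of E12.5, with 105 to 226 RPM. Within a library miR-29a-3p ranked between 179th and 431st by level.

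Between cell types, miR-29a-3p was 1.30-fold higher in the PGC library of the female E11.5 pair and 4.75-fold higher in that of the male E11.5 pair. At E12.5 it was 11.7-fold higher in females and 12.1-fold higher in males, and at E13.5 5.99-fold and 6.56-fold. All 6 pairs thus pointed the same way on the RPM scale. The smallest difference was in the pair whose PGC library carried few germ cell markers. In that pair the counting intervals overlapped, at 26.9 to 49.3 RPM in PGC and 21.0 to 37.3 RPM in SC. The mean difference was 2.45 ± 0.59 on the log2(RPM + 1) scale (SE, 6 pairs, limma, adjusted p = 0.0119). Without the pair of the library labelled PGC female E11.5 it was 2.87 (limma, adjusted p = 0.00458). Without both E12.5 PGC libraries it was 1.95 (limma, adjusted p = 0.114), which ends the call, and 3.31% of all tested microRNAs were then called.

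That call stands against a background in which 39.0% of the 513 tested microRNAs passed the threshold of an adjusted p under 0.05 between PGC and SC, 13.5% as higher in PGC and 25.5% as lower. Of the 5 members, 1 was called higher and 2 lower, with a median difference of -0.33 against -0.74 over all tested microRNAs. Of those lower, miR-152-5p, passed the filter on low values only through SC, so that its call follows in part from the filter and supports nothing about the members. The scale matters for these directions. The deposited values keep total signals that run from 105730 to 2158037 per library and are lower for the PGC library of each pair, and on them the median difference of all tested microRNAs was -2.57 and 84.2% were called, 7.02% as higher and 77.2% as lower. On the deposited scale miR-29a-3p differed by 0.27 (limma, adjusted p = 0.686) and was not called, while the 4 other members were called lower. Its deposited value was lower in PGC in the female pairs of E11.5 (33.1 against 61.0) and E12.5 (10.8 against 13.2). It was higher in PGC in the female pair of E13.5 and in the male pairs. Relative to the median of all tested microRNAs, miR-29a-3p stood 3.20 log2 units higher on the RPM scale and 2.85 higher on the deposited scale. In bulk libraries such as these, fewer cells of a type and less RNA per cell cannot be told apart.

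In germ cells miR-29a-3p rose between E11.5 and E13.5, by 8.45-fold from the library labelled female E11.5 and by 3.55-fold in males. The fitted change was 2.43 ± 0.57 (SE, log2(RPM + 1), 2 libraries a stage, limma, adjusted p = 0.0178), in a comparison in which 28.8% of tested microRNAs were called, 7.41% as higher and 21.4% as lower. It was the only member called there. Without the library labelled PGC female E11.5 the change was 1.98 (limma, adjusted p = 0.113), without the female PGC library of E13.5 it was 1.96 (limma, adjusted p = 0.116), and on the deposited scale, where 32.9% of microRNAs were called, it was 1.80 (limma, adjusted p = 0.154). In a fit of the PGC libraries alone it was 2.43 (limma, adjusted p = 0.0616). The call was thus lost under 4 of the 19 alternatives in which miR-29a-3p could be tested. The summed germ cell markers rose and the summed somatic markers fell over the same PGC libraries, and their part in the change of miR-29a-3p was not tested. In the male PGC libraries alone, miR-29a-3p went from 85.5 to 303 RPM while the germ cell markers went from 66992 to 113871 RPM, by way of 136605 RPM at E12.5, and the somatic markers from 58050 to 9139 RPM.

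In somatic cells miR-29a-3p was 1.84-fold higher at E13.5 than at E11.5 in females and 2.57-fold in males, a fitted change of 1.08 ± 0.57 (SE, log2, limma, adjusted p = 0.301) that did not pass. The germ cell markers in SC also went from 221 and 293 RPM at E11.5 to 3305 and 5787 RPM at E13.5. The difference between the changes in PGC and SC was 1.35 ± 0.81 (SE, log2, limma, adjusted p = 0.401), with a 95% interval from -0.57 to 3.26. miR-29c-3p, which shares the seed, was detected in none of the 6 PGC libraries and in 3 SC libraries with 6 to 9 reads each, at 3.54 to 11.5 RPM. The floors of the PGC libraries reach 4.09 to 29.98 RPM, so its absence from them is not shown at this depth. miR-29b-3p and the 5p arms of the family were not analysed here.

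**Figure D2:**
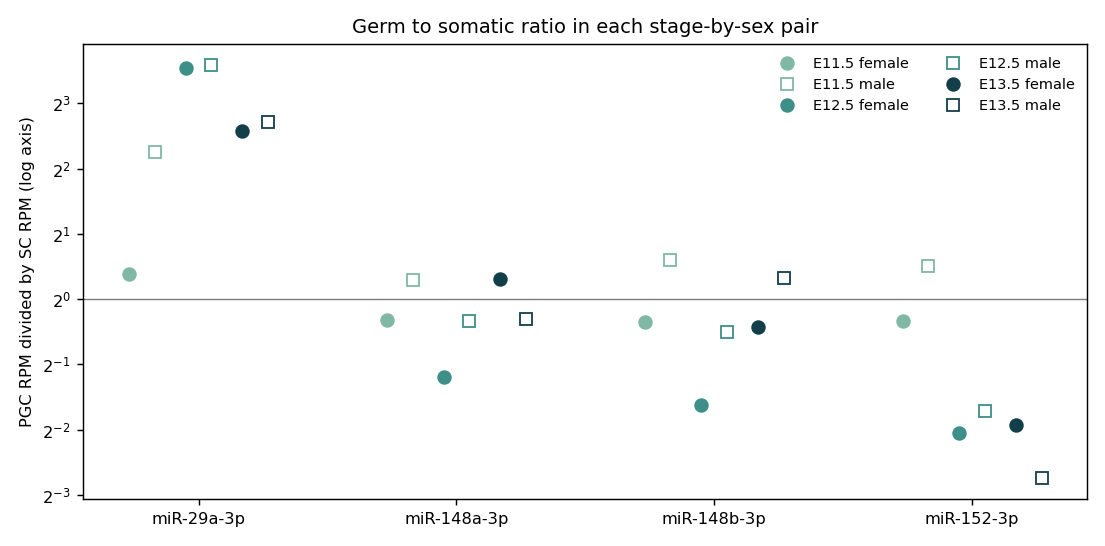
PGC level divided by SC level (log axis, 1 marked by the line) in each stage-by-sex pair for the 4 members with reads in every library; circles are female pairs, open squares male pairs, and darker colours later stages. All 6 points of miR-29a-3p lie above 1, from 1.30 to 12.1, the points of miR-148a-3p and miR-148b-3p lie on both sides, and those of miR-152-3p at E12.5 and E13.5 lie at 0.305 or lower.

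miR-148a-3p was by far the most abundant member and did not differ detectably between germ and somatic cells at equal totals. In PGC it stood at 19293 RPM in the library labelled female E11.5, 18095 in male E11.5, 7800 in female E12.5, 13889 in male E12.5, 24652 in female E13.5 and 26429 in male E13.5. In SC it stood at 24036, 14752, 17790, 17583, 19854 and 32758 RPM in the same order. The lowest library was the least deep, PGC female E12.5, the highest was SC male E13.5, and the groups overlapped. It ranked between 7th and 23rd of the microRNAs of a library. The PGC minus SC difference was -0.26 ± 0.28 (SE, log2, limma, adjusted p = 0.452), with a 95% interval from -0.87 to 0.35, and PGC was lower in 4 of 6 pairs. On the deposited scale the difference was -2.49 (limma, adjusted p = 0.00192), only 0.08 above the median of all tested microRNAs on that scale. Between E11.5 and E13.5 it changed by 0.45 ± 0.38 in PGC (SE, log2, limma, adjusted p = 0.434) and by 0.44 ± 0.38 in SC (SE, log2, limma, adjusted p = 0.507).

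miR-148b-3p, the intronic partner of Copz1, stood 9.25-fold to 27.8-fold below miR-148a-3p in reads and did not differ detectably between the cell types at equal totals. In PGC it stood at 1815 RPM in the library labelled female E11.5, 1878 in male E11.5, 486 in female E12.5, 988 in male E12.5, 1594 in female E13.5 and 1481 in male E13.5. In SC it stood at 2307, 1242, 1494, 1401, 2147 and 1180 RPM. The 2 shallow PGC libraries of E12.5 were the lowest, and the other PGC libraries lay within the SC range. The difference was -0.33 ± 0.32 (SE, log2, limma, adjusted p = 0.412), with a 95% interval from -1.04 to 0.38. On the deposited scale it was -2.55 (limma, adjusted p = 0.00261), 0.02 above the median of all tested microRNAs. Its changes from E11.5 to E13.5 were -0.26 ± 0.38 in PGC (SE, log2, limma, adjusted p = 0.665) and -0.09 ± 0.38 in SC (SE, log2, limma, adjusted p = 0.901).

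miR-152-3p was lower in germ cells than in somatic cells, with the gap in the pairs of E12.5 and E13.5. In PGC it stood at 2281 RPM in the library labelled female E11.5, 2297 in male E11.5, 611 in female E12.5, 787 in male E12.5, 1260 in female E13.5 and 1152 in male E13.5. In SC it stood at 2870, 1621, 2525, 2584, 4813 and 7729 RPM. The 4 later PGC libraries lay below every SC library, and the E11.5 PGC libraries lay within the SC range. SC male E13.5 was the highest of the 12 and its interval of 7561 to 7899 RPM did not reach that of SC female E13.5, the next in order.

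At E11.5 the PGC library was 1.26-fold below SC in females and 1.42-fold above it in males. At E12.5 PGC was 4.13-fold lower in females and 3.28-fold lower in males, and at E13.5 3.82-fold and 6.71-fold lower. The fitted difference was -1.38 ± 0.41 (SE, log2, 6 pairs, limma, adjusted p = 0.0265), lower in 5 of 6 pairs, and 0.63 below the median of all tested microRNAs. Leaving out the pair of the library labelled PGC female E11.5 gave -1.59 (limma, adjusted p = 0.0246). Leaving out any one of the E12.5 or E13.5 pairs gave -1.10 to -1.31 with limma adjusted p from 0.0676 to 0.0804, so the call needs each of these 4 pairs. The share of all tested microRNAs called was then 16.4% to 23.8%. On the deposited scale the difference was -3.60 (limma, adjusted p = 0.000322), 1.03 below the median there. The summed somatic markers were lower in the same 4 PGC libraries, at 9139 to 29515 RPM, and their part in the difference was not tested.

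Between E11.5 and E13.5 the values of miR-152-3p ran in opposite directions in the cell types, without a call in either. It was 1.81-fold lower in female PGC, counting from the library labelled female E11.5, and 1.99-fold lower in male PGC. In SC it was 1.68-fold higher in females and 4.77-fold higher in males. From E12.5 to E13.5 it rose in both cell types. In PGC it went from 611 to 1260 RPM in females and from 787 to 1152 RPM in males. In SC it went from 2525 to 4813 RPM and from 2584 to 7729 RPM. The E11.5 PGC libraries held 84088 and 58050 RPM of the somatic markers, and the part of these in the PGC change was not tested. The PGC change of -0.93 ± 0.38 (SE, log2, limma, adjusted p = 0.122) did not pass. The SC change was 1.50 ± 0.38 (SE, log2, limma, adjusted p = 0.0645) and did not pass either, in a comparison with 7.99% of microRNAs called, 6.63% as higher. It did pass with TMM factors, which scale libraries by a trimmed mean of ratios, at 1.75 (limma, adjusted p = 0.0442), and without the female SC library of E13.5, at 2.04 (limma, adjusted p = 0.0353). The test of the difference between the changes gave -2.42 ± 0.54 (SE, log2, limma, unadjusted p = 0.00295, adjusted p = 0.0842), with 0 of the 513 microRNAs called on the RPM scale. Without the library labelled PGC female E11.5 it was -2.37 (limma, adjusted p = 0.171).

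**Figure D3:**
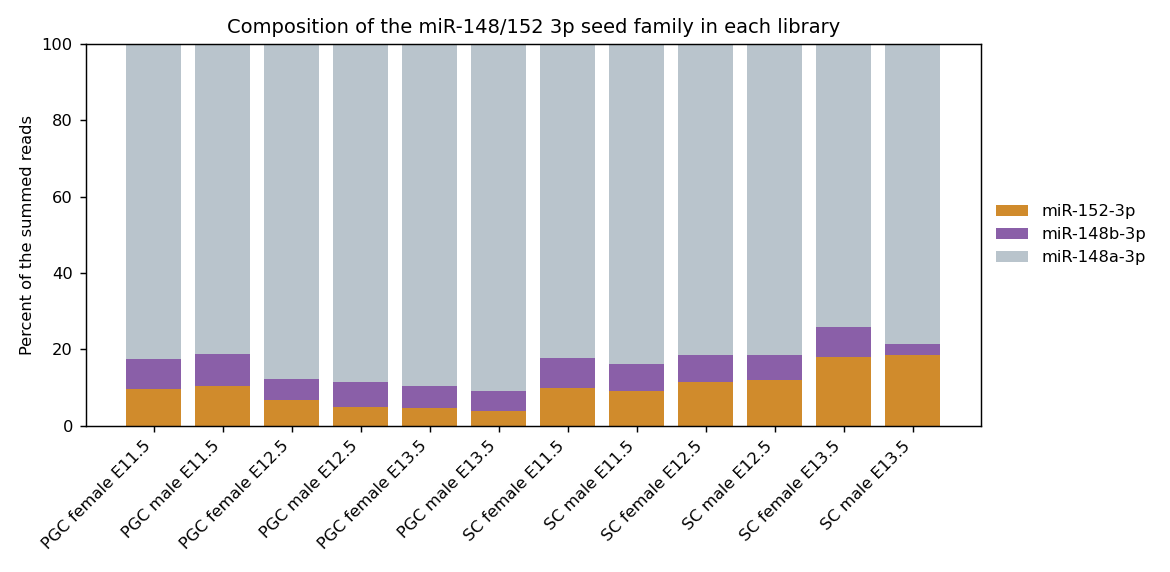
Share (percent, bars start at 0) of miR-152-3p, miR-148b-3p and miR-148a-3p in the summed reads of these 3 microRNAs, in each of the 12 libraries. miR-152-3p makes up 9.20% to 10.3% at E11.5 in both cell types, then shrinks to 3.96% in PGC and widens to 18.5% in SC by E13.5. The E11.5 PGC libraries held 84088 and 58050 RPM of the somatic markers.

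These 3 microRNAs share a seed, and the share of each in their summed reads does not depend on the scaling between libraries. The shares use the same reads as the levels above, so they restate the pattern of miR-152-3p without that scaling. miR-152-3p took 9.75% of the family's reads in the PGC library labelled female E11.5 and 10.3% in male, against 9.83% and 9.20% in SC. At E12.5 it took 6.87% and 5.03% in PGC against 11.6% and 12.0% in SC. At E13.5 the shares were 4.58% and 3.96% in PGC against 18.0% and 18.5% in SC. The shares of the cell types were thus close at E11.5 and did not overlap on either later day. The E11.5 PGC libraries held 84088 and 58050 RPM of the somatic markers, against 9139 to 29515 RPM in the later ones. The part of these markers in the shares was not tested. The family as a whole, the sum of the 3 levels, was 8897 to 29062 RPM in PGC and 17615 to 41666 RPM in SC, and miR-148a-3p made up 74.0% to 90.9% of it.

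Ratios between members within a library were compared over the 6 pairs by an exact two-sided sign-flip permutation test, whose smallest possible p is 0.03125, with Benjamini-Hochberg adjustment over 4 ratios. The ratio of miR-29a-3p to miR-148a-3p was higher in PGC by a mean of 2.77 ± 1.45 log2 units (SD, 6 of 6 pairs, exact permutation p = 0.03125, adjusted p = 0.125). That of miR-152-3p to miR-148b-3p differed by -1.05 ± 1.16 (SD, lower in 5 of 6 pairs, exact permutation p = 0.0625, adjusted p = 0.125). That of miR-148a-3p to miR-152-3p differed by 1.12 ± 1.11 (SD, higher in 5 of 6 pairs, exact permutation p = 0.09375, adjusted p = 0.125). The ratio of miR-148a-3p to miR-148b-3p differed by 0.07 ± 0.50 (SD, higher in 4 of 6 pairs, exact permutation p = 0.781). None of the 4 ratios passed after adjustment. A lone ratio at the smallest possible p adjusts to 0.125 over 4 ratios, so with 6 pairs it could not have passed. That none passed therefore decides nothing. The ratios among miR-148a-3p, miR-148b-3p and miR-152-3p share members and are not separate tests.

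miR-152-5p, the opposite arm, was near the detection floor in germ cells. It was detected in 2 PGC libraries, with 29 reads (23.7 RPM) in the library labelled female E11.5 and 6 reads (13.9 RPM) in female E13.5, and was at 0 in the other 4. In SC it stood at 50.9 RPM in female E11.5, 42.5 in male E11.5, 26.1 in female E12.5, 19.6 in male E12.5, 40.7 in female E13.5 and 69.3 in male E13.5. At E12.5 the SC levels lay below the PGC floors of 29.98 and 27.1 RPM, so no difference was detectable at that depth. In the other pairs PGC was 2.14-fold lower in female E11.5 and 2.92-fold lower in female E13.5. Taken at the floor of 5 reads in the PGC library, it was at least 3.68-fold lower in male E11.5 and 5.44-fold in male E13.5. These folds leave out counting error. The PGC intervals reached 23.7 RPM in male E11.5 and 26.1 RPM in male E13.5, and the SC intervals began at 27.8 and 54.2 RPM.

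Over all libraries 35 of 2827542 PGC reads and 323 of 7985168 SC reads were miR-152-5p. miR-152-5p passed the filter on a mean deposited value of 5 only through SC, where its mean was 63.9 against 4.46 in PGC, and the fit reads the E12.5 pairs as differences although none was detectable there. Its fitted difference of -3.88 ± 0.89 (SE, log2(RPM + 1), limma, adjusted p = 0.00978) is therefore given as a description only. Its size depends on the pseudocount, since 4 libraries are at 0: with 10 RPM in place of 1 it was -1.79 (limma, adjusted p = 0.00407). Without the pair of the library labelled PGC female E11.5 it was -4.44 (limma, adjusted p = 0.00583), and without both E12.5 PGC libraries -3.53 (limma, adjusted p = 0.114), which ends the call. As a share of the 3p arm, the 5p arm reached 0.757% to 2.62% in SC, 1.04% and 1.11% in the 2 PGC libraries with reads, and below 0.503% in male PGC of E11.5, the bounds in the other 3 PGC libraries being 1.11% to 4.90%. The 5p arms of the other hairpins were also minor, at 0.511% to 2.23% of the 3p arm for miR-148a and 1.60% to 4.55% for miR-148b where detected, with female PGC of E12.5 at 0 for miR-148b-5p.

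**Figure D4:**
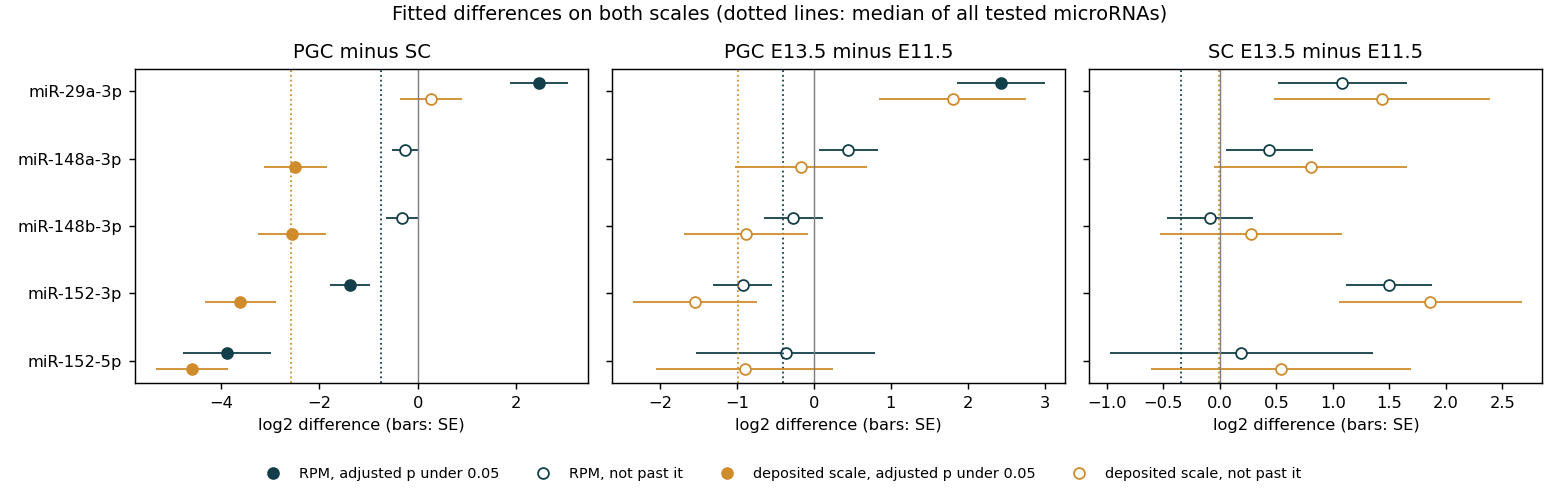
Fitted log2 differences with their SE for the 5 members in 3 comparisons, on RPM (dark) and on the deposited scale (orange), filled where the limma adjusted p is under 0.05, with dotted lines at the median of all 513 tested microRNAs. Between PGC and SC the medians lie at -0.74 and -2.57, and miR-29a-3p lies above and miR-152-3p and miR-152-5p below the median on both scales.

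No member was called between the sexes, and neither was any other of the 513 microRNAs on the RPM scale by limma, with 83 in PGC and 22 in SC at an unadjusted p under 0.05. In PGC the male minus female differences of the 4 members detected in every library ran from 0.08 (miR-152-3p) to 0.59 (miR-29a-3p), with limma adjusted p from 0.548 to 0.917. The 95% interval for miR-29a-3p ran from -0.51 to 1.70. miR-152-5p differed by -2.84 ± 0.95 (SE, log2, limma, adjusted p = 0.268), from 2 female libraries with reads and 3 male libraries at 0. In SC the largest difference was that of miR-148b-3p, at -0.62 ± 0.31 (SE, log2, limma, adjusted p = 0.924). Its male SC libraries stood 1.86-fold below the female one at E11.5, 1.07-fold at E12.5 and 1.82-fold at E13.5.

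Of 8 other microRNAs with reported links to DNA methyltransferases, 1 was higher in PGC than in SC and 2 were lower, shares close to the 13.5% and 25.5% of all tested microRNAs, with a median difference of -0.43 against -0.74 over all microRNAs. miR-194-5p averaged 772 ± 306 RPM in PGC and 384 ± 75.4 RPM in SC (SD, n = 6 each), a difference of 0.93 ± 0.30 (SE, log2, limma, adjusted p = 0.0335) that on the deposited scale has no call as higher, since none of the 8 was called higher there and 7 were called lower, where 77.2% of all tested microRNAs were. miR-143-3p, abundant in smooth muscle and mesenchyme, averaged 16150 ± 17302 RPM in PGC and 36841 ± 13094 RPM in SC a difference of -1.90 ± 0.41 (SE, log2, limma, adjusted p = 0.00782). miR-126a-3p, the endothelial microRNA, averaged 16946 ± 16852 and 27999 ± 6828 RPM, a difference of -1.21 ± 0.40 (SE, log2, limma, adjusted p = 0.0359). miR-342-3p, the next most abundant, averaged 1364 ± 788 and 1553 ± 618 RPM, a difference of -0.27 ± 0.33 (SE, log2, limma, adjusted p = 0.519). miR-143-3p and miR-126a-3p are also on the marker lists for mesenchyme and endothelium. Within PGC these latter fell from E11.5 to E13.5, counting the library labelled female E11.5, miR-143-3p by 2.62 and miR-126a-3p by 2.10 log2 units (limma, adjusted p = 0.0052 for each). They were the 2 of the 8 called there, where 21.4% of all tested microRNAs were called lower. None of the 8 was called between the stages in SC, where 7.99% of all tested microRNAs were called. Both counts are near those shares.

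Of the 4 microRNAs with reported links to the TET enzymes, which oxidise methylated cytosine, none was called between the cell types or between the stages on the RPM scale. Of all tested microRNAs, 39.0% were called between the cell types, and 28.8% in PGC and 7.99% in SC between the stages. A list of 4 is too short to be told apart from those shares. miR-26a-5p, the most abundant, averaged 37167 ± 7335 RPM in PGC and 38374 ± 8498 RPM in SC (SD, n = 6 each), a difference of -0.04 ± 0.24 (SE, log2, limma, adjusted p = 0.912). miR-22-3p averaged 2534 ± 578 and 4246 ± 1947 RPM, a difference of -0.69 ± 0.28 (SE, log2, limma, adjusted p = 0.0652). miR-26b-5p averaged 3715 ± 1049 and 3566 ± 1046 RPM, a difference of 0.05 ± 0.26 (SE, log2, limma, adjusted p = 0.883). On the deposited scale, where 77.2% of all tested microRNAs were called lower in PGC, all 4 were, with a median difference of -2.25 near that of all tested microRNAs.

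Each member was compared with the 347 tested microRNAs of at least 50 RPM for likeness of its log2(RPM + 1) profile over the 12 libraries. The libraries differ in cell type, stage, sex and depth, and r does not separate these differences. Nearest to miR-29a-3p by Pearson's r were miR-293-3p at 0.954, miR-293-5p at 0.948 and miR-291b-3p at 0.941, all from the miR-290 cluster. Its r with miR-148a-3p was 0.08 and with miR-152-3p -0.49. miR-148a-3p was nearest to miR-140-5p at 0.897, miR-101a-3p at 0.865 and miR-455-5p at 0.863, the first pair of which are on the list of methyltransferase regulators. miR-148b-3p was nearest to miR-872-5p at 0.937, miR-186-5p at 0.936 and miR-7a-5p at 0.912. miR-152-3p was nearest to miR-542-3p at 0.907, miR-335-5p at 0.901 and miR-322-5p at 0.898, and miR-152-5p to miR-181a-5p at 0.863, miR-708-3p at 0.857 and miR-199a-5p at 0.854. Within the seed family r was 0.69 between miR-148a-3p and miR-148b-3p, 0.66 between miR-148a-3p and miR-152-3p, and 0.59 between miR-148b-3p and miR-152-3p. Between the arms of miR-152, which differ in seed, it was 0.74. The neighbours were picked as the 3 highest r, so any relative outside them is lower by that choice. The family values are therefore given as a description only.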

How the data were processed

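Small RNAs were sequenced in 12 libraries. The submitters' processing notes name the tools FastQC, Trim Galore, Bowtie 1.1.2 and DESeq and the genome build GRCm38. How reads were counted, and against which annotation, is not given in the sources used here. Per the labels, the deposited values are a normalized signal. All 7392 deposited values were 0 or whole multiples (tolerance 1e-06) of the library's smallest value divided by 5, as counts divided by a size factor per library would be, so reads were taken back and 0 was read as under 5 reads; 1797 values are 0. Each library was brought to 1e+06 (RPM), because the deposited totals still run from 105730 to 2158037.

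The 513 microRNAs with a mean deposited value of at least 5 were analysed as log2(RPM + 1) with limma 3.58.1 in R 4.3.3 (empirical Bayes with trend, Benjamini-Hochberg, adjusted p under 0.05). PGC and SC were compared with the stage-by-sex pair as a block (5 residual degrees of freedom); whether the 2 fractions of a pair share their gonads is not stated in the labels. Stage and sex were tested in 1 fit of all libraries (4 residual degrees of freedom). The spread is pooled over microRNAs, so p-values can be smaller than these degrees of freedom alone allow. Intervals are exact Clopper-Pearson intervals at 95% (SciPy 1.17.1) and cover counting error only, since amplified reads lacking molecular identifiers are not separate molecules. The fits were tested on simulated data. Introns were taken by gene name from GENCODE, since its build differs from that of the files.

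The members, the lists and the tests were chosen with earlier results of these data known. Named microRNAs are the members, up to 3 of each list with the highest mean, and the 3 most alike to each member; miR-194-5p was added after its values were seen. The alternatives were the deposited scale, TMM factors, another pseudocount, other filters, leaving out libraries, and other designs, with limma voom added after seeing the data.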

Additional observations from a re-analysis of the deposited data

Results flagged for a closer look

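In SC male E13.5 the ratio of miR-148a-3p to miR-148b-3p was 27.8, against 9.25 to 12.6 in the other 5 SC libraries, a gap past Dixon's 95% critical value for 6 samples. In the same library the ratio of miR-152-3p to miR-148b-3p was 6.55, against 1.24 to 2.24 in the others, and passed the same value. The library had the lowest miR-148b-3p level of SC, at 1180 RPM, and the highest miR-148a-3p and miR-152-3p levels, at 32758 and 7729 RPM. Both ratios share miR-148b-3p, so they are not separate signs, and chance flags about 1 in 20 such groups. The stage change of miR-152-3p differed between PGC and SC by -2.42 on the log2 scale. E13.5 was lower than E11.5 in both sexes of PGC and higher in both sexes of SC. The female PGC change counts from the library labelled PGC female E11.5, which went against its label, with 2141 RPM of the germ cell markers. Leaving out a library in turn gave differences from -3.015 to -1.833. The test of the difference on all libraries gave a limma adjusted p of 0.0842 and did not pass.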

How the results depend on the processing

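Each count of members is followed by the share of all tested microRNAs called under the same setting. Between PGC and SC 3 members were called (39.0%). Among them was miR-152-5p, whose call follows in part from the filter and supports nothing about the members. With the filter on the mean deposited value raised to 50, where 3 members could be tested, 1 was called (41.0%). Without both E12.5 PGC libraries 0 were called (3.31%). When a library was left out in turn 2 to 3 were called (16.4% to 46.2%), each time with miR-152-5p among them. For E13.5 against E11.5 in PGC 1 member was called (28.8%), and 0 on the deposited scale (32.9%), with the filter at 50 (33.1%), where miR-29a-3p was not tested, and with PGC libraries alone (14.2%), and 0 to 1 when a library was left out (18.1% to 29.0%). For the same stages in SC 0 were called (7.99%), and 1 with TMM factors (8.77%) and with voom (9.75%), and 0 to 1 when a library was left out (0.975% to 9.94%). The ratio of miR-148a-3p to miR-148b-3p, 0.07 log2 units higher in PGC, turned to -0.0015 without the female E12.5 pair and -0.063 without the female E13.5 pair; the cause was not tested. The sexes gave 0 called members in all settings run (0% to 1.17%), and so did the difference in stage change (0% to 1.36%). With shares this low, a count of 0 says nothing about the members. miR-29a-3p kept a positive PGC minus SC difference in all 19 alternatives, from 0.27 to 2.87 (limma adjusted p from 0.00396 to 0.686), and miR-152-3p a negative one in all 20, from -3.60 to -1.10 (limma adjusted p from 0.000322 to 0.232). Without the pair block, miR-152-3p had a limma adjusted p of 0.0136. The edgeR and DESeq2 alternatives were not run, and the ratio of miR-152-5p to miR-152-3p was not tested because 4 PGC libraries are at 0. Depth limits miR-29a-3p and miR-152-5p most, and no combination has a second library.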
